A study of Mus musculus with 8 samples.

Results

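The globin mRNAs and Alas2 of the mouse were followed through an RNA immunoprecipitation sequencing (RIP-seq) experiment on embryonic cortex. The 8 genes were taken by Ensembl ID from the 54838 IDs of the count files. They are the alpha-like globins Hba-x (ENSMUSG00000055609), Hba-a1 (ENSMUSG00000069919) and Hba-a2 (ENSMUSG00000069917), the beta-like globins Hbb-y (ENSMUSG00000052187), Hbb-bh1 (ENSMUSG00000052217), Hbb-bs (ENSMUSG00000052305) and Hbb-bt (ENSMUSG00000073940), and the haem enzyme gene Alas2 (ENSMUSG00000025270). Of them 7 had enough counts to be tested and 1, Hba-a2, did not. The symbols came with the IDs in the rule that chose the genes, since the files hold IDs alone.

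Dissociated cells of the cortex of C57BL/6 mouse embryos at embryonic day 12.5 were lysed, and protein with its RNA was pulled down on beads. For 4 libraries the pull-down used a rabbit Exosc10 antibody. Exosc10 is a nuclear enzyme of the RNA exosome that degrades RNA from its 3′ end. For the other 4 the mock pull-down used normal rabbit IgG. Input RNA was not analysed here, so values set the pull-downs against each other and not against the RNA of the cells. The Exosc10 libraries held 21731971 to 34506709 counts and the IgG libraries 20967743 to 30199449. Separate litters or cultures are not mentioned in the labels, so p-values cover the spread between these libraries only, and that spread may be technical.

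Haemoglobin is a tetramer of alpha-like and beta-like chains, each holding a haem group. In the mouse, the first red cells come from the yolk sac and carry embryonic chains, encoded by Hba-x (zeta), Hbb-y (epsilon-y) and Hbb-bh1. Red cells made later in the fetal liver carry the adult chains of Hba-a1 and Hba-a2 and of Hbb-bs and Hbb-bt. Alas2 is the erythroid form of 5-aminolevulinate synthase, which carries out the first step of haem synthesis. These are genes of red cells and their precursors, and cortical neurons and progenitors are not their main site of expression. Markers of cortical cells and other erythroid genes are not reported, because their Ensembl IDs could not be paired with symbols. In such bulk pull-downs, the number of cells of a type, the RNA per cell and the part recovered with each antibody cannot be told apart.

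On the mouse assembly GRCm38.p6 (RefSeq), the alpha-like genes lie together on chromosome 11. Hba-x spans 32276600 to 32278116, Hba-a1 spans 32283672 to 32284486 and Hba-a2 spans 32296492 to 32297310. The beta-like genes lie together on chromosome 7. There Hbb-bt spans 103812524 to 103813923, Hbb-bs 103826523 to 103827928, Hbb-bh1 103841638 to 103843162 and Hbb-y 103851754 to 103853207. Alas2 lies on chromosome X from 150547417 to 150570622. All 8 are protein-coding genes.

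The starts of 6 globin genes are shown because the globins are copies of 2 ancestral genes. How well reads can be told apart depends on how alike the transcripts are. Only the bases after the transcript start bear on that, and the rest of the transcripts was not compared. Each stretch runs 5′ to 3′ on the gene's own strand, from 100 bases before the RefSeq transcript start to 30 bases after it. Capitals mark motifs found on either strand. The CCAAT box was searched as CCAAT, the TATA box as ATATAA and also as CATAAA, the CACCC box as CACCC and the GATA site as GATAA. Matches of different motifs overlapped once, by 1 base, between GATAA and CATAAA of Hbb-y, upstream of the stretch shown.
Hba-a1, chr11:32283572-32283701, plus strand: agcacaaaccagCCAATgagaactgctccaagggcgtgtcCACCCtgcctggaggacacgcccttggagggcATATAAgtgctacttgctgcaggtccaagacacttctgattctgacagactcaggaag
Hba-a2, chr11:32296392-32296521, plus strand: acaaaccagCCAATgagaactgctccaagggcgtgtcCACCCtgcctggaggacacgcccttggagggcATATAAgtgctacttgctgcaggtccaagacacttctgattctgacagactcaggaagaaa
Hba-x, chr11:32276500-32276629, plus strand: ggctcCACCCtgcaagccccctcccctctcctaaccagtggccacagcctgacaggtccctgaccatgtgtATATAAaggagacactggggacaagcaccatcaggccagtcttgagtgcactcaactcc
Hbb-bs, chr7:103827899-103828028, minus strand: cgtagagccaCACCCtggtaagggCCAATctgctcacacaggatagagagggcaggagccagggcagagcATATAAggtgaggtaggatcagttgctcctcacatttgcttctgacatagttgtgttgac
Hbb-bt, chr7:103813894-103814023, minus strand: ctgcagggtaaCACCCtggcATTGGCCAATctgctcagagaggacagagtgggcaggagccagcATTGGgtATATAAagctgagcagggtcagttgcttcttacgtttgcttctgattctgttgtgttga
Hbb-y, chr7:103853178-103853307, minus strand: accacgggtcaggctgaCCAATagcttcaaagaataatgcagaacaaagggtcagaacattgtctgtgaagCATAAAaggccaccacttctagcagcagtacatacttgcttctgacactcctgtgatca

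The Hba-a1 and Hba-a2 windows were the same sequence shifted by 3 bases. Over the 300-base windows of the reference table, which reach 250 bases before and 50 bases after the transcript start, 297 of 297 aligned bases were identical. In the transcribed part alone, 47 of 47 aligned bases were identical. Hbb-bs and Hbb-bt shared 40 of 49 aligned bases (81.6%) at the start of their transcripts, without gaps. In the 7 member windows that the table holds, CACCC and GATAA were each found in 7, CCAAT in 5, ATATAA in 5 and CATAAA in 1. Of all 32851 windows of that length, 57.5% held CACCC, 25.4% GATAA, 37.4% CCAAT, 9.82% ATATAA and 11.9% CATAAA, so CACCC in particular is common. These are matches of letters and not shown to be binding sites.

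Levels are given in CPM, which puts the counts of every library on the same total after trimmed-mean (TMM) scaling. Transcript lengths are not in the files, so levels are not corrected for length, and ranks by CPM are ranks of counts only. The question was whether globin RNA was a larger or smaller part of what came down with the Exosc10 antibody, set against normal IgG. The comparison used edgeR's quasi-likelihood test, with p adjusted by the Benjamini-Hochberg method over all 16716 tested genes. All 6 tested globins had a lower mean with Exosc10, and 3 of them passed the test as lower, namely Hba-x, Hbb-bs and Hbb-bh1. The share of all tested genes called lower was 5.82%. None of the 7 tested members was called higher in edgeR, and 7.92% of all tested genes were called higher. At an unadjusted p under 0.05, 5 members were lower and 0 higher, against 14.8% lower and 15.8% higher among all tested genes. DESeq2 and limma-voom also called 0 members higher. Over all tested genes, 1324 were higher and 973 lower, a balance that turned to 1025 higher and 1369 lower with upper-quartile scaling, where the same count of members, 3, was lower. The median log2 fold change was -0.83 over the 7 tested members and -0.03 over all tested genes.

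**Figure D1:**
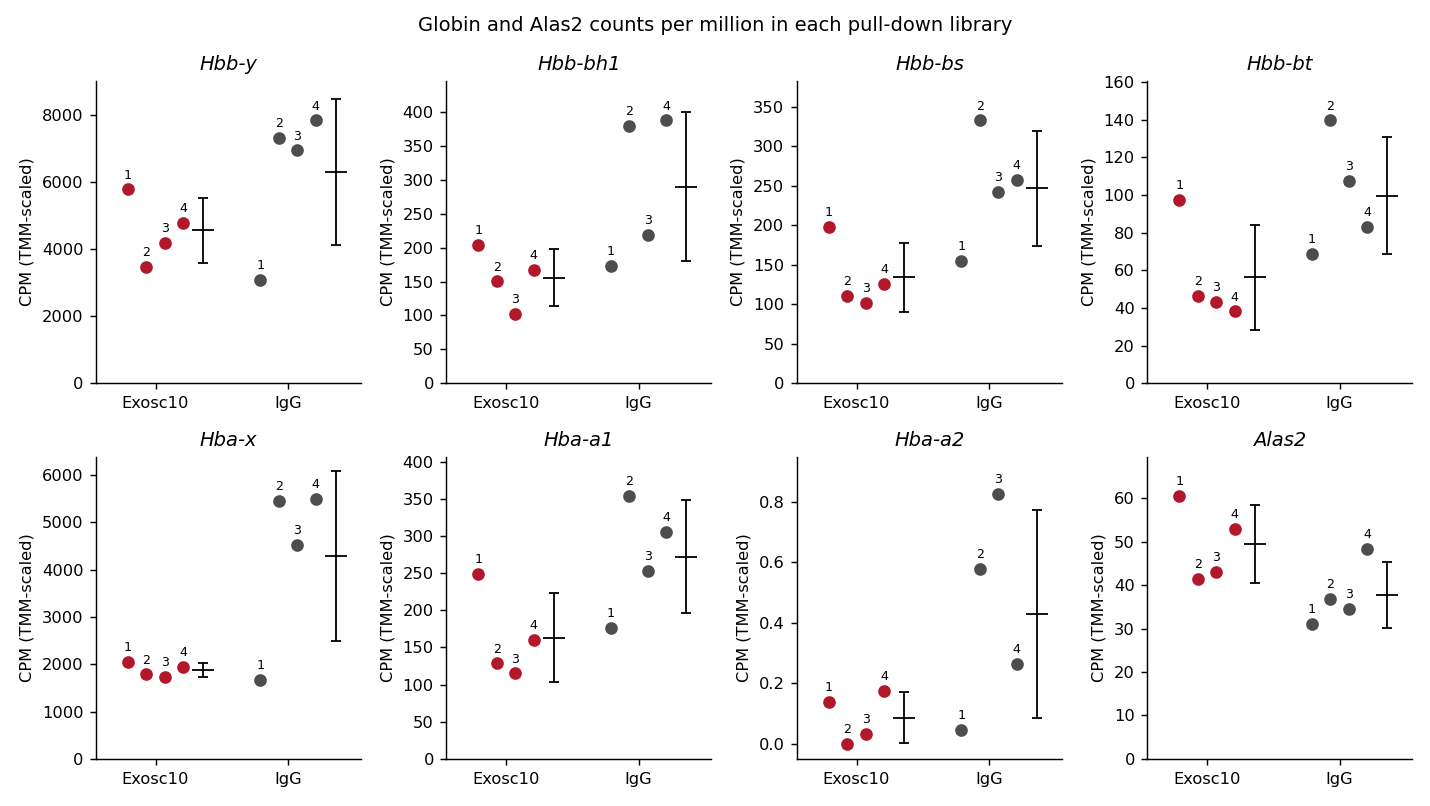
Each panel plots the TMM-scaled CPM of one gene in the 4 Exosc10 libraries (red) and the 4 IgG libraries (grey), with the library number above each point and a bar for mean and SD. IgG library 1 is the lowest of the IgG libraries for each of the 7 tested members, and Exosc10 library 1 the highest of its group.

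Hbb-y, which encodes the epsilon-y chain of embryonic haemoglobin, stood at 5787, 3473, 4191 and 4793 CPM in Exosc10 libraries 1 to 4, against 3084, 7321, 6950 and 7846 CPM in IgG libraries 1 to 4. The groups overlapped, because the IgG library numbered 1 lay below every Exosc10 library while the other 3 lay above them all. Means and SDs of Hbb-y (n = 4 each) were 4561 ± 979 CPM for Exosc10 and 6300 ± 2175 CPM for IgG. On the log2 scale Hbb-y differed by -0.47 ± 0.27 (SE), with 95% confidence bounds of -1.04 and 0.11, and edgeR's test was not passed (adjusted p = 0.259). Leaving out IgG library 1 gave -0.69 and an edgeR adjusted p of 0.0204. By mean CPM over both groups, without correction for length, Hbb-y ranked 3 among all tested genes.

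Hbb-bh1, the other embryonic beta-like gene, fell with Exosc10. It stood at 204, 150, 102 and 167 CPM in Exosc10 libraries 1 to 4 and at 173, 380, 219 and 388 CPM in IgG libraries 1 to 4. Exosc10 library 1 lay above IgG library 1 and below the other IgG libraries. Mean levels of Hbb-bh1 were 156 ± 42.5 CPM for Exosc10 and 290 ± 110 CPM for IgG (SD over 4 libraries each). The log2 fold change in edgeR, -0.90 ± 0.28 (SE), had bounds of -1.49 and -0.30 and an adjusted p of 0.045.

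Hbb-bs and Hbb-bt encode the adult beta chains of this strain. Hbb-bs stood at 198, 111, 101 and 126 CPM in Exosc10 libraries 1 to 4, against 155, 333, 242 and 257 CPM in IgG libraries 1 to 4. Exosc10 library 1 was again the only one of its group above an IgG library, the one numbered 1. Hbb-bs fell by 0.88 on the log2 scale, with an SE of 0.26, bounds of -1.43 and -0.34 and an edgeR adjusted p of 0.0352.

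Hbb-bt stood at 97.6, 46.2, 43.0 and 38.1 CPM in Exosc10 libraries 1 to 4 and at 68.7, 139.6, 107.6 and 82.8 CPM in IgG libraries 1 to 4. Here Exosc10 library 1 lay above IgG libraries 1 and 4 and far from the rest of its own group. Hbb-bt differed by -0.83 ± 0.29 (log2, SE), between bounds of -1.46 and -0.20, a size near that of Hbb-bs, but missed the threshold (edgeR adjusted p = 0.0755). The counts of Hbb-bs and Hbb-bt were also summed before the fit, to allow for reads divided between them. Summing cannot restore reads that were dropped for matching both. The pair fell, with a log2 value of -0.87 ± 0.26 (SE) and an edgeR adjusted p of 0.0431.

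Among the alpha-like genes Hba-x fell, to 0.439 of its IgG level in the fit, the largest fold change of the 7 tested members. Hba-x encodes the zeta chain, the embryonic partner of the beta-like chains. It stood at 2056, 1786, 1742 and 1947 CPM in Exosc10 libraries 1 to 4, against 1670, 5447, 4517 and 5504 CPM in IgG libraries 1 to 4. The Exosc10 libraries lay close together, and 3 of the IgG libraries lay far above them. The remaining IgG library, numbered 1, lay just below them, so the groups overlapped. For Exosc10 the mean of Hba-x was 1883 ± 145 CPM and for IgG 4284 ± 1800 CPM (SD over 4 libraries each). The edgeR fit gave -1.19 ± 0.30 (log2, SE) with bounds of -1.82 and -0.55 and an adjusted p of 0.0193. Only 2.07% of all tested genes had a fold change as low or lower. Hba-x ranked 6 by mean CPM over both groups, again without correction for length.

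The adult gene Hba-a1 stood at 249, 129, 115 and 160 CPM in Exosc10 libraries 1 to 4 and at 176, 354, 253 and 305 CPM in IgG libraries 1 to 4. Exosc10 library 1 was again close to the lower IgG libraries while the others of its group lay below all of them. Means were 163 ± 60.1 CPM for Exosc10 and 272 ± 75.9 CPM for IgG (SD over 4 libraries each). The difference of -0.74 ± 0.26 (log2, SE), between bounds of -1.30 and -0.18, missed the threshold (edgeR adjusted p = 0.0755).

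Hba-a2 was almost uncounted, with 10 reads in the 4 Exosc10 libraries together and 44 in the IgG libraries. The counts were 3, 0, 1 and 6 in Exosc10 libraries 1 to 4 and 1, 15, 20 and 8 in IgG libraries 1 to 4. Exosc10 library 2, at 0, allows up to 3 counts, or 0.101 CPM before TMM scaling. Hba-a1 had 18296 reads with Exosc10 and 28534 with IgG, although the 2 gene starts printed above are the same sequence. How reads shared by both copies were assigned was not given in the sources used here, so the split between Hba-a1 and Hba-a2 is uncertain. The summed pair, which cannot restore reads counted for neither copy, differed by -0.74 ± 0.26 (log2, SE), with an edgeR adjusted p of 0.0752.

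Alas2, the haem enzyme, differed in the opposite direction to the globins, and the difference did not pass the test. It stood at 60.5, 41.4, 43.0 and 52.9 CPM in Exosc10 libraries 1 to 4, against 31.0, 36.9, 34.6 and 48.4 CPM in IgG libraries 1 to 4. The groups overlapped through IgG library 4, which lay above Exosc10 libraries 2 and 3. Means of Alas2 were 49.4 ± 8.96 CPM for Exosc10 and 37.7 ± 7.53 CPM for IgG (SD over 4 libraries each). The log2 value was 0.39 ± 0.19 (SE), between bounds of -0.02 and 0.80, at an edgeR adjusted p of 0.185.

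**Figure D2:**
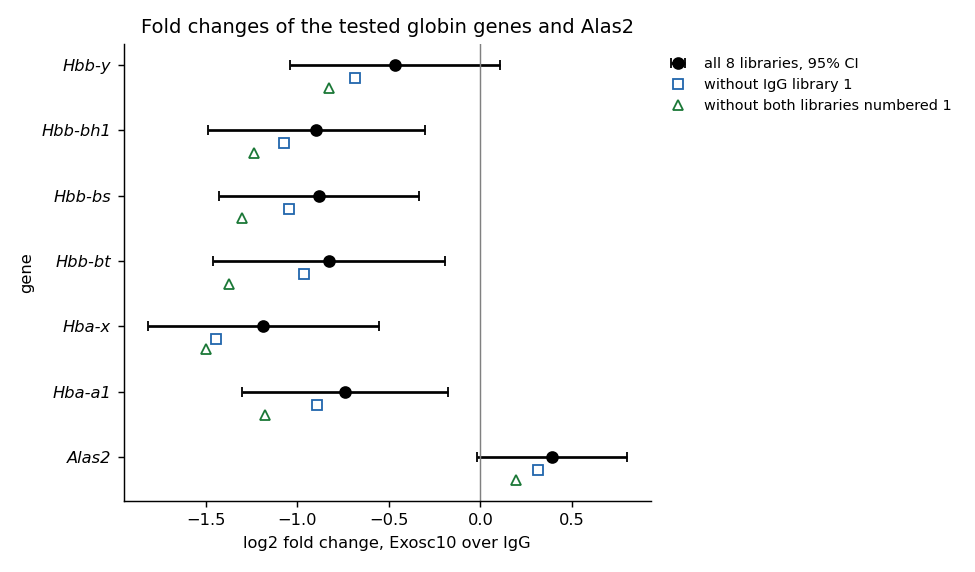
Log2 fold changes of Exosc10 over IgG for the 7 tested members, as filled points with 95% confidence intervals from all 8 libraries, and as open symbols without IgG library 1 (squares) and without both libraries numbered 1 (triangles). Each of the 6 tested globins lies below 0 in all 3 fits and Alas2 lies above 0, with an interval that reaches -0.02. For each globin the libraries numbered 1 lay nearest the other group, so leaving them out moves the open symbols away from 0.

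The calls rested on which libraries were in the fit. Without Exosc10 library 2, 3 or 4, or without IgG library 2, 3 or 4, none of the 7 tested members was called in edgeR, while 3 to 5 of them were lower at an unadjusted p under 0.05, against 11.2% to 12.9% of all genes tested in those fits. Alas2 was higher at that threshold in the fits without Exosc10 library 2, Exosc10 library 3 or IgG library 4, against 12.7% to 14.4% of all genes tested in those 3 fits. Over all 6 fits Hba-x had edgeR adjusted p-values of 0.0512 to 0.0649, and its log2 fold change stayed between -1.20 and -1.04. Without IgG library 1, 6 members were called lower, at a background of 10.7% of all genes tested in that fit. Without both libraries numbered 1, 6 were called lower as well, at a background of 15.1%. Exosc10 library 1 was the highest and IgG library 1 the lowest of its group for each tested member. Leaving out 1 or both of them thus widens the globin differences by the choice of libraries, so those fits are no separate support. In the 7 tested members no gene had groups that did not overlap, against 10.6% higher and 8.45% lower among all tested genes. With both libraries numbered 1 left out, all 6 tested globins were lower without overlap, as were 22.4% of all genes tested in that fit. The share of such genes in these 3 against 3 libraries was thus high over the whole table.

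The summed globin share was lowest in IgG library 1 and highest in the other 3 IgG libraries. The 7 globin genes together took 0.854%, 0.581%, 0.613% and 0.717% of all counts in Exosc10 libraries 1 to 4, and 0.567%, 1.40%, 1.17% and 1.45% in IgG libraries 1 to 4. In CPM the sums averaged 6953 ± 1262 for Exosc10 and 11494 ± 4209 for IgG (SD over 4 libraries each). The difference of -4541 CPM was close in size to the SD of the IgG libraries, and it was -7142 CPM without both libraries numbered 1. It was not tested, since the sum is a score over chosen genes. The amount of blood in each preparation was not measured, and its part in these differences was not tested.

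Ratios between the globins within a library do not depend on scaling, and some of them did not overlap between the groups. Among single tested genes, 10.6% were higher and 8.45% lower without overlap. How often ratios of other genes separate the groups was not counted, so whether these are unusual is not known. Of the summed globin counts, Hbb-y took 67.4%, 61.0%, 66.6% and 66.3% in Exosc10 libraries 1 to 4, against 57.9%, 52.4%, 56.6% and 54.5% in IgG libraries 1 to 4. Every Exosc10 library lay above every IgG library. The widest 95% Wilson interval of these shares was ± 0.281 percentage points, and it covers counting error only. Hba-x took 27.5% ± 3.05 of the globin counts with Exosc10 and 36.3% ± 3.45 with IgG (SD, n = 4 each), where only Exosc10 library 2 reached the level of IgG library 1, at 31.4% in both. The other 5 globin genes together made up the small remainder in every library.

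**Figure D3:**
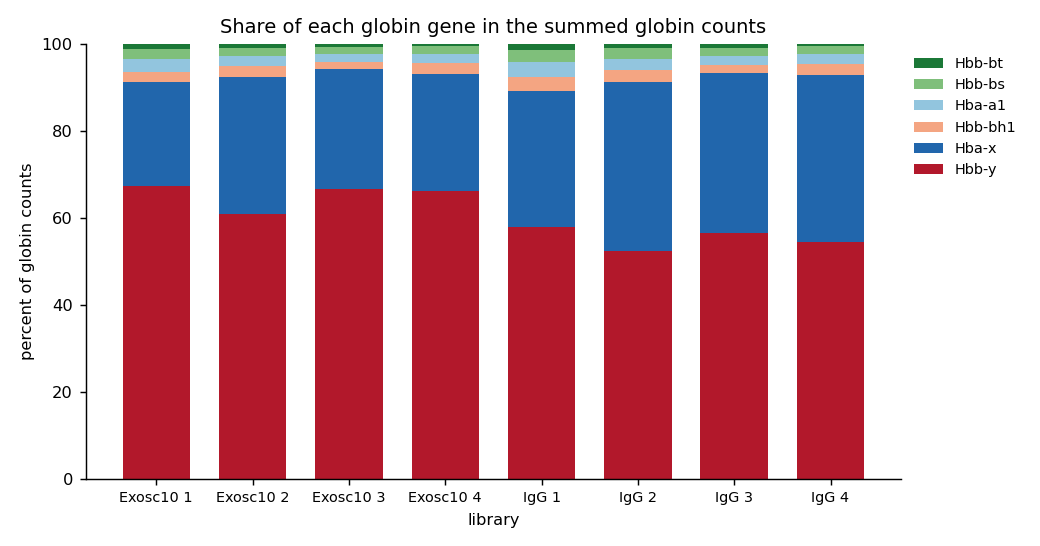
Stacked bars give the percent of the summed globin counts held by each globin gene in each library. Hba-a2 is not drawn, having too few counts to be visible. Hbb-y and Hba-x fill most of every bar, and the Hbb-y part is higher in the 4 Exosc10 libraries (61.0% to 67.4%) than in the 4 IgG libraries (52.4% to 57.9%).

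The ratio of all alpha-like to all beta-like counts gave the same separation. On the log2 scale it was -1.45, -0.98, -1.26 and -1.28 in Exosc10 libraries 1 to 4, against -0.91, -0.49, -0.66 and -0.56 in IgG libraries 1 to 4. The means were -1.24 ± 0.19 with Exosc10 and -0.66 ± 0.18 with IgG (SD, n = 4 each), a difference of -0.59. Most of these counts came from the embryonic genes Hba-x and Hbb-y. Reads shared by Hba-a1 and Hba-a2 may be missing from the alpha-like counts, so the level of the ratio is uncertain. This ratio, the Hbb-y share and the Hba-x to Hbb-y ratio are therefore nearly the same quantity and not separate results. Among the shares of globin counts only that of Hbb-y was without overlap, and the ratio of Hbb-bh1 to Hbb-y counts overlapped. The ratio of Hba-x to Hbb-y counts was 0.355, 0.514, 0.416 and 0.406 in Exosc10 libraries 1 to 4 and 0.542, 0.744, 0.650 and 0.701 in IgG libraries 1 to 4, again without overlap. In this ratio IgG library 1 was the lowest of its group and lay just above Exosc10 library 2, the highest of the other.

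Alas2 set against the globins separated the groups as well. There were 7.04, 7.26, 6.83 and 7.32 Alas2 counts per 1000 globin counts in Exosc10 libraries 1 to 4, against 5.82, 2.64, 2.82 and 3.37 in IgG libraries 1 to 4. The Exosc10 libraries were nearly alike, and IgG library 1 lay closer to them than to the other IgG libraries. The mean was 7.11 ± 0.22 with Exosc10 and 3.66 ± 1.47 with IgG (SD, n = 4 each). The Hba-x to Hbb-y and Alas2 to globin ratios were chosen after their values had been seen. The shares of globin counts, that of Hbb-y among them, and the Hbb-bs to Hbb-bt ratio were not planned either. Only the alpha-like to beta-like ratio and the embryonic percents of alpha-like and beta-like counts were planned. None of the ratios or shares was tested.

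**Figure D4:**
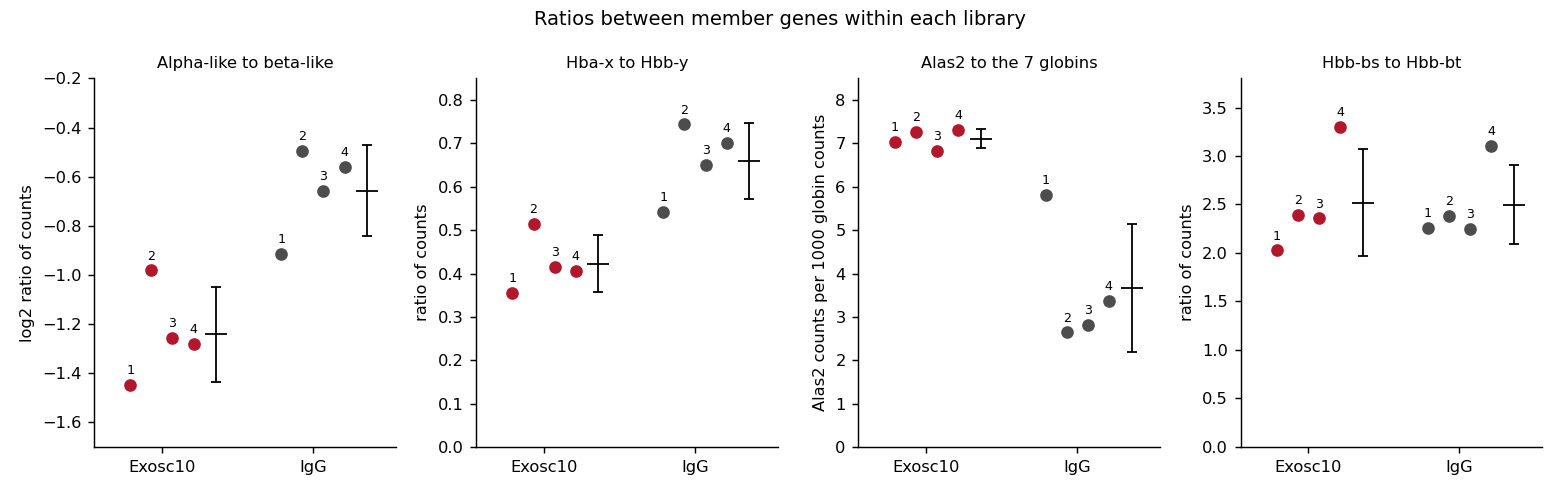
From left to right, the panels plot the log2 ratio of alpha-like to beta-like counts, the ratio of Hba-x to Hbb-y counts, Alas2 counts per 1000 globin counts, and the ratio of Hbb-bs to Hbb-bt counts in each library, numbered, with mean and SD as bars. The first 3 separate the Exosc10 from the IgG libraries, and in the last the groups overlap (2.03 to 3.30 with Exosc10, 2.25 to 3.11 with IgG).

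The balance of embryonic and adult chains differed by small amounts, with ranges that overlapped between the pull-downs. The embryonic gene Hba-x made up 89.2%, 93.3%, 93.8% and 92.4% of alpha-like counts in Exosc10 libraries 1 to 4 and 90.4%, 93.9%, 94.7% and 94.7% in IgG libraries 1 to 4. The means were 92.2% ± 2.06 with Exosc10 and 93.4% ± 2.03 with IgG (SD, n = 4 each). Hbb-y and Hbb-bh1 together made up 95.3%, 95.8%, 96.7% and 96.8% of beta-like counts in Exosc10 libraries 1 to 4 and 93.6%, 94.2%, 95.3% and 96.0% in IgG libraries 1 to 4. Their means were 96.2% ± 0.73 with Exosc10 and 94.8% ± 1.11 with IgG (SD, n = 4 each). Embryonic globin counts thus outnumbered adult ones in each library, by count and without correction for transcript length. Reads shared by near-identical adult copies, such as Hba-a1 and Hba-a2, may have been dropped in counting. The adult counts may then be too low, and the embryonic percents too high, by an unknown amount. The ratio of Hbb-bs to Hbb-bt counts, the adult beta genes, was 2.03, 2.40, 2.36 and 3.30 in Exosc10 libraries 1 to 4 and 2.26, 2.38, 2.25 and 3.11 in IgG libraries 1 to 4. Library 4 was the highest in each group.

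Within the groups the members varied together to different degrees. The deviations of log2 CPM from the group means were correlated over the 8 libraries as a description, since all members of a library share its depth and preparation. Hba-a1 and Hbb-bs, adult genes of different clusters, had a Pearson r of 0.984. The embryonic genes Hba-x and Hbb-y had an r of 0.937. IgG library 1 deviated most for both, by -1.22 for Hba-x and -0.94 for Hbb-y, so this r leans on that library. The lowest value among the globins was 0.486, between Hba-x and Hbb-bt, and Alas2 ranged from 0.399 with Hbb-bt to 0.802 with Hba-a1.

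Among 11708 genes with a mean of at least 5 CPM, the deviations of ENSMUSG00000028044 and ENSMUSG00000075705 were, after Hbb-y itself, most like those of the summed globins. Both had an r of 0.987 over the 8 libraries. The files give these IDs no symbols. Hba-x came at rank 11 in this list with an r of 0.97. Hbb-y and Hba-x make up most of the sum, so their high r is in part fixed by that. Of the other tested members, Hbb-bs came at rank 339 (r = 0.85), Hba-a1 at 451 (0.824) and Hbb-bh1 at 683 (0.78). Alas2 came at rank 923 with 0.729, above Hbb-bt at rank 1676 with 0.59. With 8 libraries in 2 groups many genes reach a high r, and none of these values was tested. IgG library 1 weighs heavily in them, with a globin sum of 5328 CPM against 12289 to 14384 CPM in the other IgG libraries. ENSMUSG00000028044 did not pass edgeR's test (log2 fold change -0.21, adjusted p = 0.645), nor did ENSMUSG00000075705 (-0.53, adjusted p = 0.16).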

How the data were processed

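RIP-seq libraries of mouse cortex at embryonic day 12.5 were compared, 4 with an Exosc10 antibody and 4 with normal IgG, grouped by their titles. The authors deposited 1 file of raw read counts per gene ID for each library, with no normalization. The submitters' processing notes name STAR 2.5.2a, featureCounts 1.5.0-p1 and bcl2fastq 2.17.1.14, with build mm10. The handling of multi-mapping reads, the strandedness and the annotation version are not given in the sources used here.

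The 8 genes, the ratios and the lists were chosen with earlier results of these data known. All of the genes were named by the rule that gave their IDs, and matched by symbol to RefSeq (GRCm38.p6), whose 49997 entries hold 0 Ensembl IDs. The erythroid and other marker lists, fixed by symbol, could therefore not be tested. The naming rule took all members and the 5 genes most like the summed globins, shortened to 2 because IDs carry no symbols.

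Counts were fitted with edgeR 4.0.16 in R 4.3.3 (filterByExpr, minimum count 10, minimum total 15; TMM; quasi-likelihood F-test; no covariate), with Benjamini-Hochberg adjustment over all tested genes and a threshold of 0.05. The SE is the log2 fold change over the square root of F. Log2 CPM used a prior count of 2. The lowest count of a tested member was 692, so counting error was small beside the spread between libraries. Duplicate reads were not stated to be removed. The fit was tested on simulated data. Alternatives were DESeq2 1.42.0, limma-voom (limma 3.58.1), other scalings and filters, a replicate block, thinning and left-out libraries; leaving the globins out of the scaling was added after the data were seen.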

Additional observations from a re-analysis of the deposited data

Results flagged for a closer look

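In 36 groups of 4 libraries, covering the CPM of the tested members and the ratios and sums, Dixon's test at the 95% level marked 2 libraries. Chance alone marks about 1 group in 20. Exosc10 library 1 stood apart for Hbb-bt, at 97.6 CPM, where the next Exosc10 library was at 46.2 CPM and the lowest at 38.1 CPM. IgG library 4 stood apart in the ratio of Hbb-bs to Hbb-bt counts, at 3.11, where the other IgG libraries lay between 2.25 and 2.38. The Exosc10 library numbered 4 was also the highest of its group in that ratio, at 3.30. The log2 fold change of Hbb-bt was -1.23 without Exosc10 library 1 (edgeR adjusted p = 0.00364) and -0.83 with it (0.0755). That library was flagged for this same gene, at a level near the IgG libraries. Leaving it out thus widens the difference by choice and is no separate support.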

How the results depend on the processing

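Over 19 alternatives each tested member kept the sign of its log2 fold change. Hba-a1, the pair Hba-a1 + Hba-a2, and Hbb-bt, which missed the threshold, passed it with DESeq2 (-0.74, -0.74 and -0.83), with limma-voom and sample weights (-1.04, -1.05 and -1.08), with no filter (-0.71, -0.71 and -0.80) and without both libraries numbered 1 (-1.18, -1.18 and -1.38). Hbb-y passed with limma-voom (-0.80) and without both libraries numbered 1 (-0.83). The fit without both libraries numbered 1 widens the globin differences by its choice of libraries and is no separate support. Members called lower numbered 3 in the fit reported, where 973 of all tested genes were lower. They numbered 5 with DESeq2 (1522 of all genes lower) and with no filter (1072). With limma-voom (3011) and without both libraries numbered 1 (2555) they numbered 6. The member counts thus rose in fits that called more genes lower over the whole table. Leaving out 1 library gave 0 to 6 such members. There were 0 in the 6 fits without a library numbered 2, 3 or 4, where 261 to 477 of all genes were lower. Without Exosc10 library 1 there were 5 (1130 of all genes lower), and without IgG library 1 there were 6 (1828). The log2 fold changes then ran from -1.01 to -0.58 for Hba-a1, -1.01 to -0.59 for its pair, -1.45 to -1.04 for Hba-x, -1.07 to -0.72 for Hbb-bh1, -1.13 to -0.70 for Hbb-bs, -1.16 to -0.68 for its pair, -1.23 to -0.62 for Hbb-bt and -0.69 to -0.34 for Hbb-y. Fewer libraries also leave fewer values to test, and the cause was not tested further. Alas2 was never called, at 0.13 to 0.53. Without the 7 globins in the scaling the call of no member was altered. The differences in the sum and in 5 ratios or percentages kept their sign, and each moved by less than the SD pooled over both groups (3107 CPM for the sum and 0.37 for Alas2 to globin). Without both libraries numbered 1 the sum differed by -7142 in place of -4541 CPM and the Alas2 to globin log2 ratio by 1.29 in place of 1.03, shifts above the Exosc10 SDs of 1262 and 0.045.

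Numbers 1 to 4 in the titles are not stated to pair the libraries, so the fit reported took none as pairs. Correlations of deviations between libraries of the same number were 0.34, 0.09, 0.34 and 0.22, all above 0 and 1 of them under 0.1. For each gene the deviations of a group sum to 0. Positive values for equal numbers therefore make the covariances between libraries of different numbers negative on average. In these deviations same-numbered libraries were thus more alike than others on average. What they share is not stated, and only the replicate block takes it into account. With the replicate block, 5 members were lower, as Hba-a1 (-0.77), its pair (-0.78) and Hbb-bt (-0.90) also passed, and 2489 genes were higher and 2006 lower. Between libraries of the same number, the embryonic percent was lower with Exosc10 for alpha-like counts in 4 of 4 and higher for beta-like counts in 4 of 4, which was not tested. The genes called over the whole table numbered 3363 higher and 3011 lower with limma-voom, 2908 and 2555 without both libraries numbered 1, 1869 and 1522 with DESeq2, and 1025 and 1369 with the upper quartile, against 1324 and 973. Without 1 library they ran from 588 to 2218 higher and from 261 to 1828 lower. The erythroid list could not be matched to IDs and was not run.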
